A study of Rattus norvegicus with 12 samples.

Results

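The genes of DNA replication and S phase were followed in rat N27 cells exposed to the insecticide fipronil. The set held 51 genes, chosen by name for their known roles in copying the genome and entering S phase. A probe under the name of the gene was on the array for 50 of them, and 48 gave a signal bright enough to test, out of 13542 genes and transcripts tested in all. Fipronil is a phenylpyrazole that blocks GABA-gated chloride channels. The study asked which transcripts differ in these cells after exposure to it.

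Total RNA from 6 N27 samples kept in 25 µM fipronil for 24 h (replicates 1, 2, 3, 4, 7 and 8) was compared with total RNA from 6 samples of untreated N27 cells (replicates 2, 3, 5, 6, 7 and 8), on one-colour Agilent rat arrays. N27 is a rat line labelled as dopaminergic and immortalised with SV40 large T antigen, a viral protein that binds RB, the brake on S phase entry, so all 12 samples carry it. The labels name no vehicle for the control cells and do not say that replicates came from separate cultures, so each p-value covers only the spread among these samples, and that spread may be technical. Of 10 dopaminergic markers, Th, the rate-limiting enzyme of dopamine synthesis, stood well above background on 12 arrays and Aldh1a1 on 8, while the dopamine transporter Slc6a3 and the factors Pitx3, Foxa2 and En1 did so on 0 arrays. The arrays lay on 3 slides. Slide 3 held fipronil replicates 1 to 4, slide 2 held control replicates 5 to 8, and slide 1 held fipronil replicates 7 and 8 with control replicates 2 and 3. The 75th percentile of the processed signal ran from 111 to 246 on the fipronil arrays and from 269 to 472 on the control arrays, and 40.8% to 45.8% against 46.4% to 50.02% of spots stood well above background. Treatment and slide cannot be told apart outside slide 1, so differences on slide 1 are given beside those over 12 arrays.

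Before S phase the origin recognition complex, Cdc6 and Cdt1 load the ring of MCM proteins onto DNA, and geminin blocks a new round of loading. The kinase Cdc7 and the cyclin E kinases then turn that ring into a working helicase by adding Cdc45 and the GINS complex. Polymerases, primase, the sliding clamp and its loader copy the opened strands, and many of these genes are transcribed in a wave at the start of S phase by E2F factors, which RB restrains.

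The letters that were measured are shown for the genes on which the results turn. Probes on these arrays are 60 bases long and are printed 5′ to 3′, 1 probe each of Gins2 and Rrm2 whole and the others as their first 30 bases. Gins2 and Rrm2 are shown because their probes gave different readings, Pcna because its 1 probe passed the test, and Mcm4 because its brightest probes overlap. In the Mcm4 lines capitals mark the bases that both overlapping probes hold, a shared run of 56 bases over their whole length.
Gins2, used probe (A_44_P412647): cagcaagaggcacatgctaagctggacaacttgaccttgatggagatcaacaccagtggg
Gins2, dim probe (A_44_P1082648): ggcacgttcagtttgcaatttgtaagcttc
Rrm2, used probe (A_44_P1085313): gcaagtcagatgtatgaccctggttggttt
Rrm2, dimmer probe (A_64_P113802): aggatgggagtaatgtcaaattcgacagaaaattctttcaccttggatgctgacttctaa
Pcna (A_44_P995132): cccaagatcgaagatgaagaaggatcttag
Mcm4, used probe (A_43_P14634): aaggGCTAAGGATTTTTATAGCACCTGGAC
Mcm4, overlapping probe (A_44_P1148208): GCTAAGGATTTTTATAGCACCTGGACTTAA
Mcm4, separate probe (A_44_P511519): gtggaacaaggaaggatttcagtcacactg
The array files place the used Gins2 probe on rat chromosome 19 between 50918540 and 50918875 of the older assembly rn4, a span longer than the probe, and the dim one between 50915139 and 50915198. The dim Gins2 probe had a stop codon in every forward frame, and the used probe had 1 frame without any. RefSeq places Gins2 on chromosome 19, Pcna on chromosome 3, Mcm4 on chromosome 11 and Rrm2 on chromosome 6.

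Among the 48 tested genes, 2 fell and 0 rose at an adjusted p of 0.05 (limma over 12 arrays, Benjamini-Hochberg over all genes tested). The pair that fell was Gins2, a subunit of the GINS complex, and Pcna, the sliding clamp that holds polymerases on DNA. Across all genes tested, 2.77% were called lower and 2.24% higher, so 2 of 48 is close to the background. The count depended on fipronil array 8: without it 10 genes passed (20.8%), all lower, where 9.3% of all genes were called lower. Without any other single array 1 to 3 passed, with no share over all genes beside that count. Calls over all genes in the fits that left out 1 array ran from 228 to 2022, against 678 with all arrays. Below an unadjusted p of 0.05, 18 of the 48 were lower (37.5%) and 0 higher, where all genes gave 15.7% lower and 9.37% higher. Fewer cells in S phase and less RNA of these genes per cell cannot be told apart in bulk RNA.

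The set as a whole sat below zero. The median log2 difference, fipronil minus control, was -0.30 over the 48 genes and -0.077 over all genes, and 41 of the 48 (85.4%) were negative, against 59.7% of all genes. Among the 43 genes well above background on all 12 arrays, 36 were negative, with a median of -0.27, against -0.056 over all genes so filtered. Values of all 6 fipronil arrays lay below those of all 6 control arrays for 5 of the 48 (10.4%), namely Gins2, Gins3, Pcna, Mcm4 and Fen1, with a background of 2.55%. For Gins3, Mcm4 and Fen1 the nearest values of both groups almost met. The opposite order occurred for 0 of the 48, with a background of 1.63%. When each gene was set against its control mean, the median of the 48 was -0.36, -0.29, -0.27, -0.22, -0.26 and -0.11 on fipronil arrays 1, 2, 3, 4, 7 and 8, against -0.070, -0.13, 0.24, 0.17, -0.058 and -0.11 on control arrays 2, 3, 5, 6, 7 and 8. Control arrays 5 and 6 stood above the rest, and fipronil array 8 lay within the control range.

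**Figure D1:**
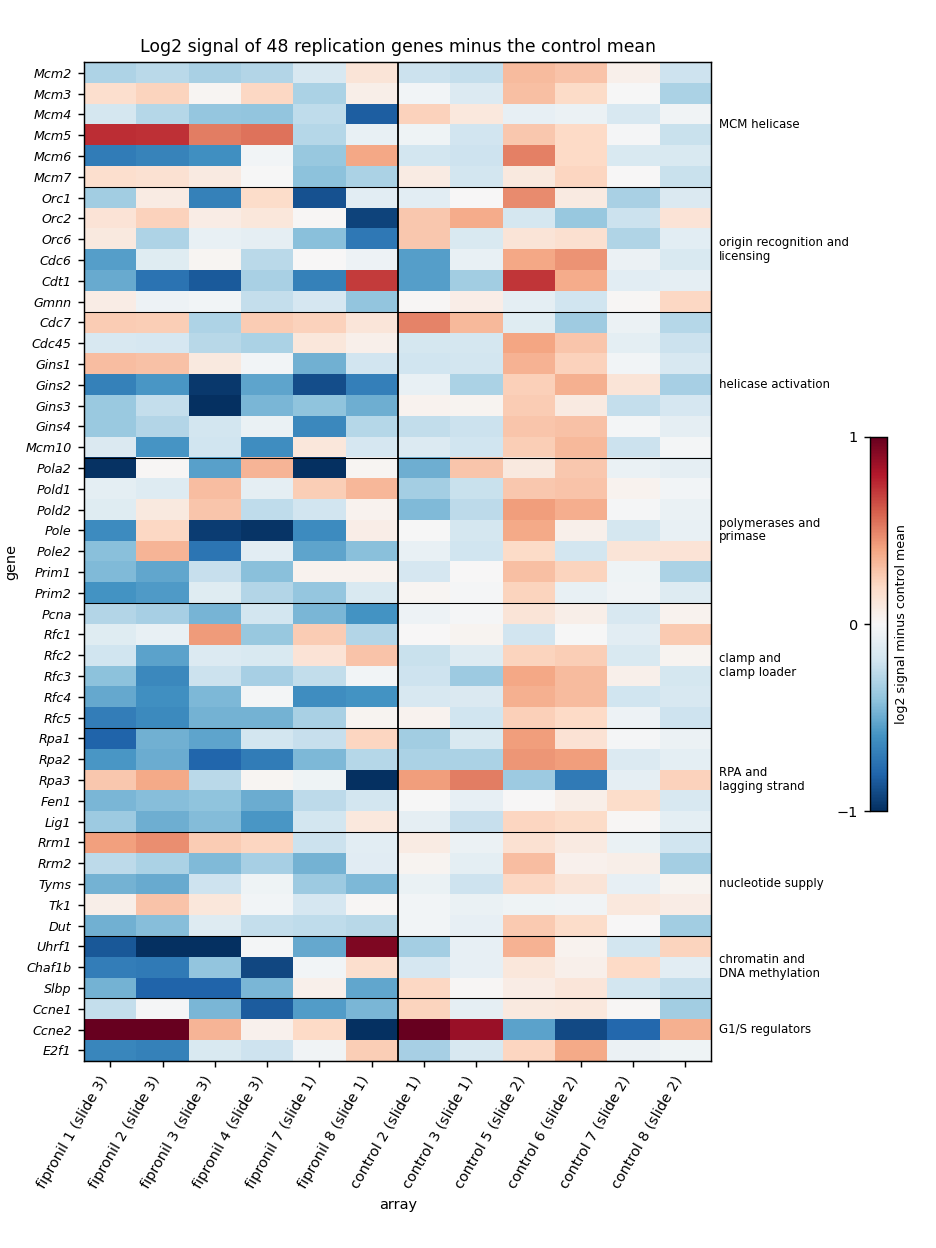
Normalised log2 signal of the 48 tested replication genes (rows, by role) on each array (columns, 6 fipronil arrays left of 6 control arrays), minus the mean of the control arrays; blue is below and red above that mean, and the colour scale ends at -1 and 1. Most fipronil columns are blue, with a median over genes between -0.36 and -0.11, while control columns 2, 3, 7 and 8 are mostly pale and control columns 5 and 6 mostly red. In control columns 2, 3, 7 and 8, 32, 36, 34 and 37 of the 48 genes lie below the control mean. In the fipronil columns 29 to 39 do so, and in control columns 5 and 6, 8 and 10.

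On slide 1, where both treatments shared a slide, the set was nearer to zero. Its median difference there was -0.17, against -0.016 for all genes, and 32 of the 48 (66.7%) were negative, against 51.6% of all genes. The 2 fipronil arrays of slide 1 both lay below the 2 control arrays for 22 of the 48 (45.8%, with a background of 28.5%) and both above for 9 (18.8%, with a background of 25.2%). Between the slides with 1 treatment each, fipronil on slide 3 minus control on slide 2, the median was -0.35 and 38 of the 48 (79.2%) were negative, against 58.5% of all genes. The sign on slide 1 was opposite to that over all 12 arrays for 21 of the 48, of which 15 were negative over 12 arrays. Between slide 1 and the contrast of slides 3 and 2, the sign was negative in both contrasts for 22 of the 48 genes, opposite for 26 and positive in both for 0. No share over all genes stands beside these counts of signs, so agreement between the contrasts was not tested. When slide was fitted as a fixed block, so that only slide 1 bears on treatment, limma called 0 of the 48 at an adjusted p of 0.05, with a background of 0.0886% in either direction. Below an unadjusted p of 0.05 in that fit were 8 lower (Mcm4, Orc2, Orc6, Gins2, Pcna, Rpa3, Ccne1 and Ccne2; 16.7%, background 10.5%) and 1 higher (Pold1; 2.08%, background 8.58%).

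**Figure D2:**
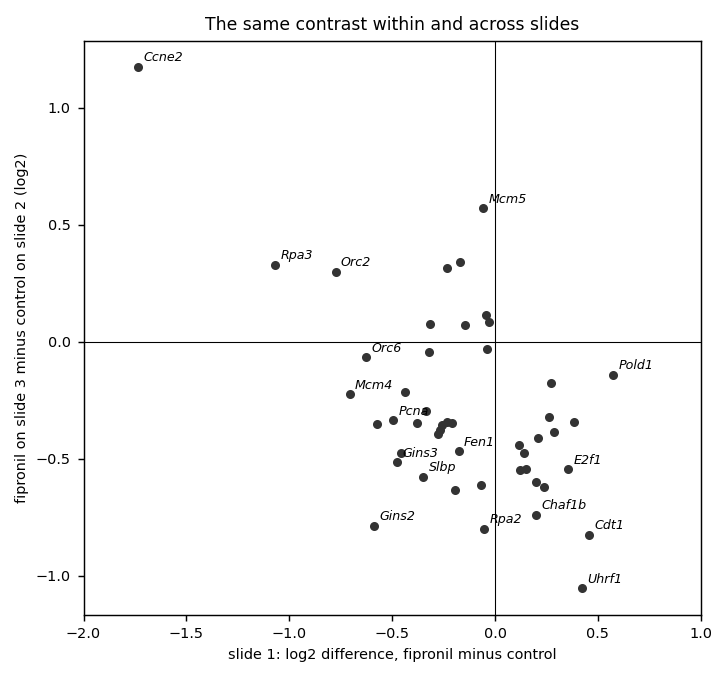
Each point is 1 of the 48 tested genes, with its log2 difference on slide 1 (fipronil minus control, 2 arrays each) on the x axis and the log2 difference of fipronil on slide 3 minus control on slide 2 (4 arrays each) on the y axis. The 22 genes at the lower left, Gins2, Gins3, Pcna and Mcm4 among them, are negative in both, and the upper right is empty. The other 26 genes have opposite signs in the contrasts.

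The MCM ring, the core of the replicative helicase, showed no change that passed the test. Of its 6 genes 4 were negative, with a median difference of -0.13 and -0.053 on slide 1. Mcm4 had the smallest p of the ring, with a lowest, median and highest normalised log2 signal of 2.14, 2.63 and 2.78 on the fipronil arrays, against 2.8, 2.91 and 3.2 on the control arrays. The groups did not overlap, and the difference was -0.39 ± 0.13 (SE, adjusted p = 0.0829 by limma). On slide 1 the Mcm4 values were 2.71 and 2.14 with fipronil, against 3.2 and 3.07 in control, a difference of -0.71. Mcm2 gave 3.09 ± 0.17 on fipronil arrays and 3.3 ± 0.26 on control arrays (SD, n = 6 each), and Mcm5 gave 3.2 ± 0.43 on fipronil arrays and 2.84 ± 0.20 on control arrays. The groups overlapped in both genes, and Mcm5, at 0.36 (adjusted p = 0.248), was the most positive of the 48. Its 4 arrays of slide 3 read 3.35 to 3.58, while the slide 1 fipronil arrays read 2.55 and 2.77. Mcm6 differed by -0.33, Mcm3 by 0.060 and Mcm7 by -0.054, with adjusted p from 0.317 to 0.836. On slide 1 Mcm6 differed by 0.20, Mcm3 by -0.046, Mcm7 by -0.32, Mcm2 by 0.21 and Mcm5 by -0.060.

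The loading factors were all negative over 12 arrays and none passed the test. Their 6 differences ran from -0.40 for Cdt1 to -0.059 for Orc2, with a median of -0.21 and a slide 1 median of -0.38. Orc6, a subunit of the origin recognition complex, gave -1.97 ± 0.29 on fipronil arrays and -1.72 ± 0.22 on control arrays (SD, n = 6 each; adjusted p = 0.32 by limma). On slide 1 Orc6 read -2.14 and -2.44 with fipronil, against -1.45 and -1.87 in control, so that the fipronil arrays were the lower pair. Orc2, of the same complex, had a difference of -0.059 over 12 arrays and of -0.78 on slide 1, where fipronil array 8 read -3.33. Cdt1, which brings the MCM ring to origins, showed the reverse arrangement. It read -3.29, -3.53, -3.63, -3.11, -3.47 and -2.09 on fipronil arrays 1, 2, 3, 4, 7 and 8, against -3.34, -3.14, -2.08, -2.42, -2.89 and -2.88 on control arrays 2, 3, 5, 6, 7 and 8. Fipronil array 8 was high and the other 5 fipronil arrays were low, and the difference was 0.46 on slide 1 and -0.82 between slides 3 and 2. Orc1, at -0.29 and at -0.44 on slide 1, stood well above background on 1 fipronil and 6 control arrays. The control arrays alone carried Orc1 past the filter, so its sign adds nothing to the count of negative genes. Cdc6, the ATPase that joins the complex to load the ring, differed by -0.16 (0.29 on slide 1), and Gmnn, which encodes geminin, by -0.14 (-0.32 on slide 1).

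Helicase activation held the gene with the largest difference of the set. Gins2 read -1.9, -1.81, -2.19, -1.75, -2.12 and -1.91 on fipronil arrays 1, 2, 3, 4, 7 and 8, against -1.3, -1.54, -0.99, -0.87, -1.09 and -1.56 on control arrays 2, 3, 5, 6, 7 and 8. Every fipronil array lay below every control array, and the means were -1.95 ± 0.17 on fipronil arrays and -1.23 ± 0.29 on control arrays (SD, n = 6 each). The difference of -0.72 ± 0.14 (SE; 95% interval -1.03 to -0.41) corresponds to a 1.65-fold lower signal with an adjusted p of 0.0187 by limma. The call held whichever single array was left out. It was lost with the normexp background and the 75th percentile, at -0.11 (adjusted p = 0.433), and when the mean of its probes stood for the gene, at -0.13 (adjusted p = 0.602). On slide 1 Gins2 read -2.12 and -1.91 with fipronil, against -1.3 and -1.54 in control, a difference of -0.59, with an adjusted p of 0.214 with slide blocked. Gins3, another subunit of the complex, had a lowest, median and highest signal of -1.38, -0.77 and -0.57 on the fipronil arrays, against -0.57, -0.30 and -0.077 on the control arrays. Its groups did not overlap but almost met, with a highest fipronil value of -0.57073 and a lowest control value of -0.570516. The difference of Gins3 was -0.50 (adjusted p = 0.0573 by limma) and -0.48 on slide 1. The other two subunits gave -0.31 (Gins4, adjusted p = 0.18) and -0.0008 (Gins1, adjusted p = 0.997), with -0.23 and -0.15 on slide 1. Differences between subunits were not tested. Cdc45, the helicase partner of GINS, differed by -0.13, the kinase Cdc7 by 0.13 and Mcm10, which helps the helicase leave the origin, by -0.27. None of these 3 passed, and on slide 1 they gave 0.26, -0.23 and 0.14 in the same order.

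**Figure D3:**
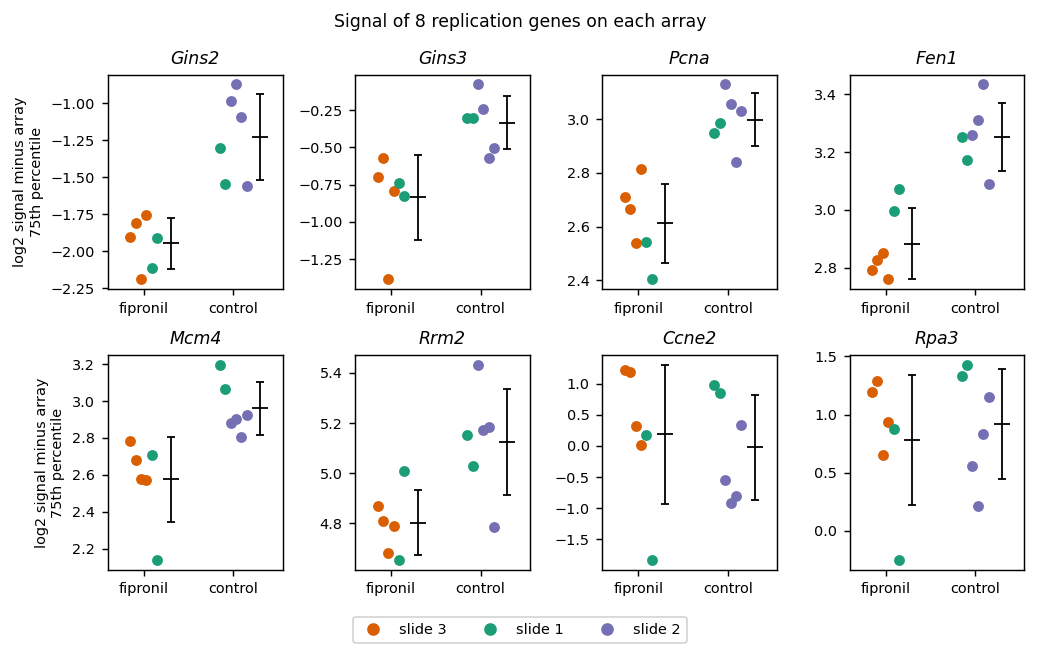
Normalised log2 signal of 8 replication genes on each array, fipronil left of control in each panel, with points coloured by slide and a bar for the mean and SD of each group (n = 6). Gins2, Gins3, Pcna, Fen1 and Mcm4 show no overlap between groups, while fipronil array 8 on slide 1 is the lowest point for Ccne2 and Rpa3.

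Of the 8 polymerase and primase genes 7 were tested, 6 were negative and 0 passed, with a median of -0.31 and -0.19 on slide 1. Prim2, the large primase subunit, had the smallest p of them. Its lowest, median and highest signals were 1.01, 1.27 and 1.5 on the fipronil arrays, against 1.49, 1.59 and 1.84 on the control arrays, so the groups overlapped slightly. The difference was -0.35 ± 0.12 (SE, adjusted p = 0.0857 by limma) and -0.28 on slide 1. Prim1, the catalytic primase subunit, differed by -0.26 and by 0.12 on slide 1. Pole, the catalytic subunit of the leading-strand polymerase, differed by -0.49 (-0.19 on slide 1) and its partner Pole2 by -0.31 (-0.34 on slide 1). Pole stood well above background on 4 fipronil and 6 control arrays, and the control arrays alone would have carried it past the filter. The sign of Pole therefore adds nothing to the count of negative genes, or to the 18 lower at an unadjusted p under 0.05 by limma. The lagging-strand polymerase subunits gave 0.097 (Pold1) and -0.027 (Pold2), and 0.57 and 0.27 on slide 1. On slide 1 both fipronil arrays were above both control arrays for Pold1, with values of 1.93 and 2.01 with fipronil, against 1.34 and 1.46 in control. Pola2, the regulatory subunit of polymerase alpha, differed by -0.36 (-0.38 on slide 1) and was well above background on 2 fipronil and 6 control arrays. The control arrays alone carried it past the filter, so its sign adds nothing to the count of negative genes. Its catalytic partner Pola1 was well above background on 0 fipronil and 5 control arrays and was not tested.

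The sliding clamp fell and its loader did not pass. Pcna read 2.71, 2.66, 2.54, 2.82, 2.54 and 2.4 on fipronil arrays 1, 2, 3, 4, 7 and 8, against 2.95, 2.98, 3.13, 3.06, 2.84 and 3.03 on control arrays 2, 3, 5, 6, 7 and 8. All fipronil arrays lay below all control arrays, with means of 2.61 ± 0.15 on fipronil arrays and 3.0 ± 0.099 on control arrays (SD, n = 6 each). The difference was -0.39 ± 0.10 (SE; 95% interval -0.61 to -0.17), a 1.31-fold lower signal with an adjusted p of 0.0467 by limma. On slide 1 Pcna read 2.54 and 2.4 with fipronil, against 2.95 and 2.98 in control, a difference of -0.49 (adjusted p = 0.15 with slide blocked). The call was lost with quantile normalization, at -0.34 (adjusted p = 0.0712), and in the authors' deposited table, at -0.34 (adjusted p = 0.0707). Among fits that left out 1 array, the call held only without fipronil array 8, and over the 12 arrays left out in turn the adjusted p ran from 0.0399 to 0.0998. The 5 loader subunits, which open the clamp and place it on DNA, were negative over 12 arrays, from -0.47 for Rfc4 (adjusted p = 0.0747) and -0.43 for Rfc5 to -0.033 for Rfc1, with Rfc3 at -0.31. On slide 1 Rfc4 gave -0.46, Rfc5 -0.066, Rfc1 -0.039 and Rfc3 0.15. Rfc2 differed by -0.10 over 12 arrays, and on slide 1 it read 0.60 and 0.74 with fipronil, against 0.24 and 0.33 in control. The slide 1 fipronil arrays were therefore the higher pair for Rfc2, by 0.39, while slide 3 minus slide 2 gave -0.34.

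RPA, the 3-subunit complex that coats single-stranded DNA, and the lagging-strand enzymes were negative for all 5 genes over 12 arrays, with a median of -0.34 and -0.053 on slide 1. Fen1, the nuclease that trims the flaps between Okazaki fragments, had the smallest p of them. It had a lowest, median and highest signal of 2.76, 2.84 and 3.07 on the fipronil arrays, against 3.09, 3.26 and 3.43 on the control arrays. The groups did not overlap, and the difference of -0.37 ± 0.10 (SE) had an adjusted p of 0.0513 by limma. On slide 1 Fen1 differed by -0.18. Lig1, the ligase that seals those fragments, gave -0.33 over 12 arrays and 0.12 on slide 1. Rpa2 differed by -0.55 (adjusted p = 0.0597) but by -0.053 on slide 1, and Rpa1 by -0.34 and 0.24. Rpa3, the smallest subunit, read 1.19, 1.29, 0.65, 0.93, 0.87 and -0.25 on fipronil arrays 1, 2, 3, 4, 7 and 8, against 1.33, 1.43, 0.56, 0.21, 0.83 and 1.15 on control arrays 2, 3, 5, 6, 7 and 8. Fipronil array 8 was the lowest of the 12, and the difference was -1.07 on slide 1 and 0.33 between slides 3 and 2.

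The nucleotide suppliers had a median of -0.30 (-0.21 on slide 1), with 3 of 5 negative over 12 arrays and all 5 negative on slide 1, and none of them passed. Tyms, which makes thymidylate, gave -0.42 ± 0.18 on fipronil arrays and -0.085 ± 0.15 on control arrays (SD, n = 6 each; difference -0.34, adjusted p = 0.0977 by limma; -0.27 on slide 1). Rrm2, the small subunit of ribonucleotide reductase that is made in S phase, had a lowest, median and highest signal of 4.65, 4.8 and 5.01 on the fipronil arrays, against 4.79, 5.16 and 5.43 on the control arrays. The groups overlapped, and the difference was -0.32 (adjusted p = 0.117) and -0.26 on slide 1. Its partner Rrm1, the large subunit, differed by 0.17 and by -0.17 on slide 1. Dut, which clears dUTP, differed by -0.30 (adjusted p = 0.142) and by -0.21 on slide 1. Tk1, the thymidine salvage kinase, gave 1.95 ± 0.15 on fipronil arrays and 1.91 ± 0.070 on control arrays, a difference of 0.045 (-0.031 on slide 1).

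Of the 5 chromatin genes 3 were tested, and none passed. Slbp and Chaf1b were negative over 12 arrays, and Slbp also on slide 1. Uhrf1 was negative over 12 arrays too, but it passed the filter mainly through control arrays, so its sign adds nothing to that. Slbp, which binds the stem-loop of histone mRNAs, gave -0.33 ± 0.31 on fipronil arrays and 0.17 ± 0.18 on control arrays (SD, n = 6 each; difference -0.50, adjusted p = 0.0654 by limma), and -0.35 on slide 1. Chaf1b, a subunit of the CAF-1 histone chaperone, had a lowest, median and highest signal of 1.58, 1.94 and 2.65 on the fipronil arrays, against 2.31, 2.47 and 2.68 on the control arrays. The 4 low arrays were those of slide 3, and on slide 1 fipronil was the higher pair, by 0.20. Uhrf1, which brings DNA methylation to new strands, was well above background on 1 fipronil and 5 control arrays and differed by -0.56 over 12 arrays and 0.42 on slide 1. Dnmt1, the maintenance DNA methyltransferase, was well above background on 0 arrays and was not tested. Chaf1a had no probe under its name.

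Of the 3 regulators of S phase entry 2 were negative and none passed the test. Ccne1, a cyclin E that activates Cdk2, had a lowest, median and highest signal of 0.61, 0.98 and 1.43 on the fipronil arrays, against 1.09, 1.49 and 1.66 on the control arrays. Its difference was -0.42 ± 0.15 (SE, adjusted p = 0.0975 by limma) and -0.58 on slide 1, where it read 0.88 and 0.98 with fipronil, against 1.66 and 1.35 in control. Ccne2, the other cyclin E gene, read 1.23, 1.2, 0.32, 0.021, 0.18 and -1.84 on fipronil arrays 1, 2, 3, 4, 7 and 8, against 0.97, 0.85, -0.55, -0.92, -0.80 and 0.34 on control arrays 2, 3, 5, 6, 7 and 8. It had the widest spread of the set, with an SD of 1.12 over fipronil and 0.85 over control arrays. The difference was 0.20 over 12 arrays, -1.74 on slide 1 and 1.18 between slides 3 and 2. E2f1, an E2F factor, gave 1.17 ± 0.36 on fipronil arrays and 1.41 ± 0.26 on control arrays (difference -0.24, adjusted p = 0.405 by limma), and on slide 1 fipronil was the higher pair by 0.36.

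**Figure D4:**
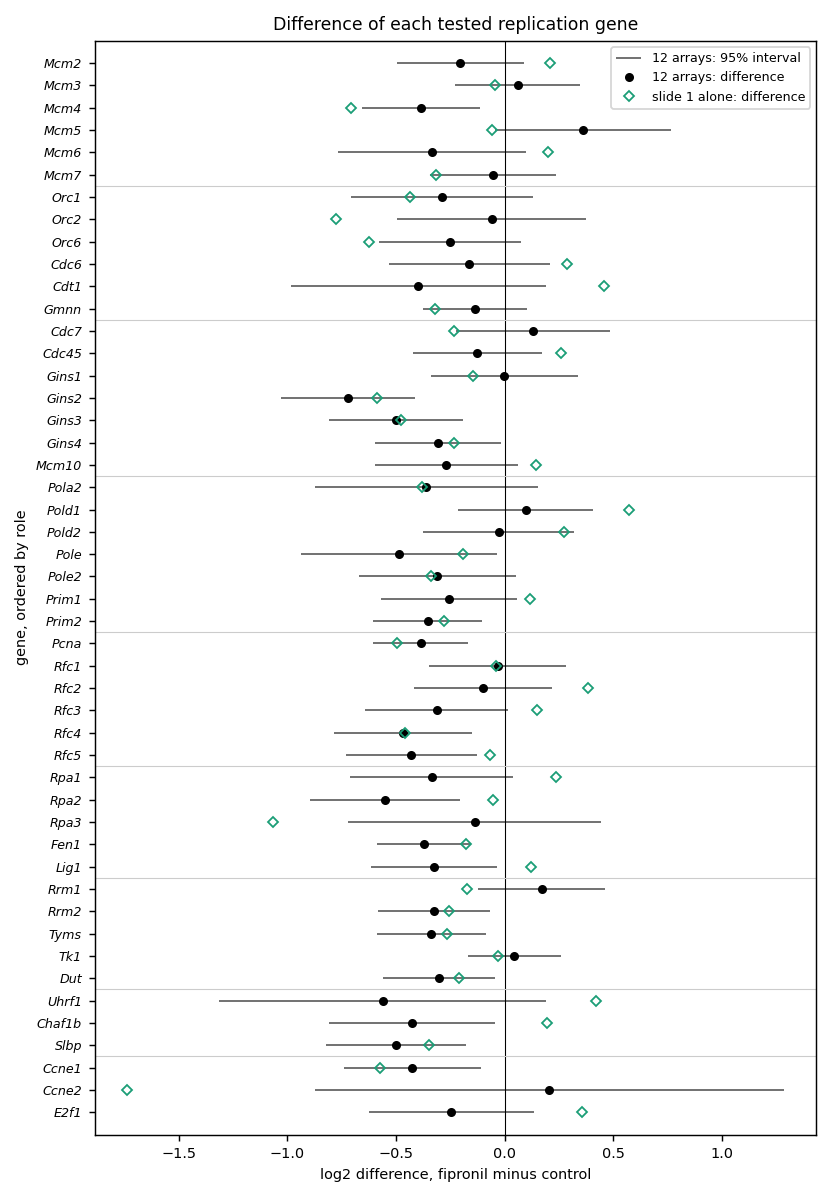
Log2 difference, fipronil minus control, of each of the 48 tested genes ordered by role, over 12 arrays (black point with its 95% interval from limma) and on slide 1 alone (open green diamond). Gins2 is the leftmost black point at -0.72, and the diamonds of Ccne2 (-1.74) and Rpa3 (-1.07) lie far from their black points.

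Several tested probes were present for 13 of the genes, and for Gins2, Chaf1b, Orc2, Rrm1 and Tk1 a second probe gave a value of the other sign. The used Gins2 probe gave -0.72, and the dim one, well above background on 3 fipronil and 5 control arrays, gave 0.45 near background (95% interval -0.16 to 1.06, adjusted p = 0.339 over all probes by limma), with -3.78 ± 0.76 on fipronil arrays and -4.23 ± 0.13 on control arrays (SD, n = 6 each). On slide 1 the dim Gins2 probe differed by 0.25. Chaf1b gave -0.43 on the used probe and 0.55 on the other (adjusted p = 0.0613), with both probes well above background on 12 arrays. For Rrm2 the dimmer probe, printed whole above, passed where the used one did not. It gave -0.70 ± 0.12 on fipronil arrays and -0.16 ± 0.23 on control arrays (SD, n = 6 each), a difference of -0.55 (adjusted p = 0.0284 over all probes) and -0.41 on slide 1. The overlapping Mcm4 probes gave -0.39 and -0.41, and the separate one -0.071. Both Rpa3 probes gave the same pattern, with -1.07 and -1.11 on slide 1, though they share no run longer than 7 bases. Of the Dut probes 1 gave -0.30 and the other -0.42, of the Rpa1 probes -0.34 and -0.39, and of the Mcm2 probes -0.20 and -0.21. The used and other probes gave -0.33 and -0.058 for Lig1, and 0.36 and 0.12 for Mcm5. Signs were opposite, with sizes under 0.2, for Orc2 (-0.059 and 0.16), Rrm1 (0.17 and -0.078) and Tk1 (0.045 and -0.13). The second Tk1 probe is placed on chromosome 3 by the array files, while RefSeq has Tk1 on chromosome 10.

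**Figure D5:**
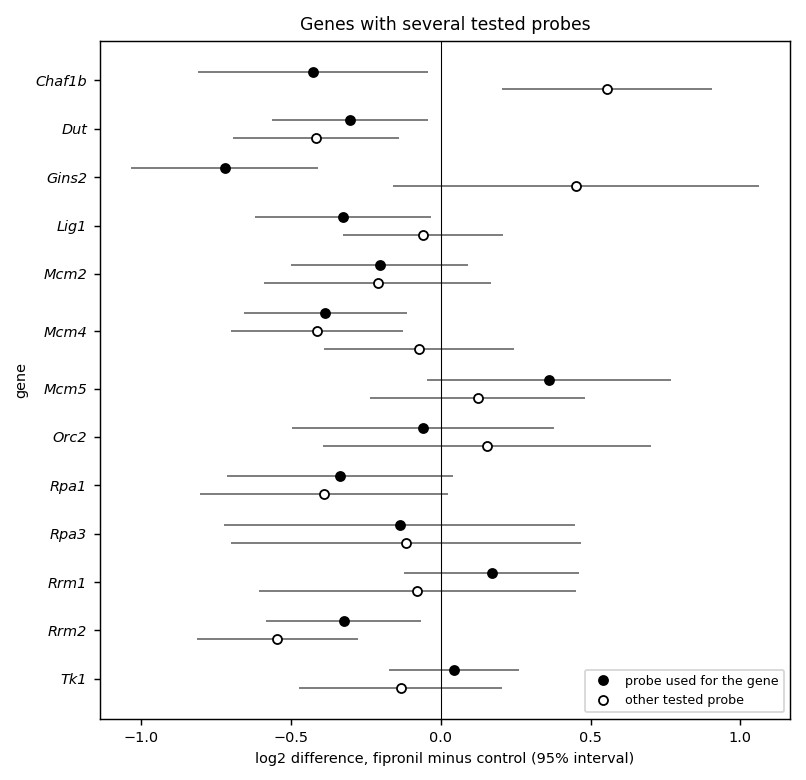
Log2 difference, fipronil minus control, with its 95% interval from limma, of each tested probe of the 13 genes with several; filled points are the probes used for the gene and open points the others. Gins2 and Chaf1b have 1 probe on each side of zero, as do Orc2, Rrm1 and Tk1 with points nearer to it. The 2 Rrm2 probes are both negative.

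Promoters are shown for the 4 genes with the smallest p, since this set is known for shared control at the start of S phase. Each window runs 5′ to 3′ from RefSeq on assembly GRCr8 over 300 bases around the annotated start, and capitals mark CCAAT or E2F letters on either strand.
Gins2, chr19:65548003-65548302, minus strand: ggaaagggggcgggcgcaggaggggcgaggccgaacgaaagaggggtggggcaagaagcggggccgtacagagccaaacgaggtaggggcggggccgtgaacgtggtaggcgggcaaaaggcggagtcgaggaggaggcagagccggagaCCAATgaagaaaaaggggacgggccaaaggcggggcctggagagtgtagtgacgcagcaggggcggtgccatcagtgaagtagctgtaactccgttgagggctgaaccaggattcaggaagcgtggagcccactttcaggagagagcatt
Pcna, chr3:139955771-139956070, minus strand: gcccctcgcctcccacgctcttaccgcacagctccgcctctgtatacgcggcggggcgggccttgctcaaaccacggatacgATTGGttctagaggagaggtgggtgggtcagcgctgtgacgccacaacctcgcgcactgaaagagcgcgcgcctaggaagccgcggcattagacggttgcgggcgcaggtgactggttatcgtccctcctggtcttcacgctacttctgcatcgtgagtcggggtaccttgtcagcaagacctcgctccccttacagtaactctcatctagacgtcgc
Fen1, chr1:216274347-216274646, minus strand: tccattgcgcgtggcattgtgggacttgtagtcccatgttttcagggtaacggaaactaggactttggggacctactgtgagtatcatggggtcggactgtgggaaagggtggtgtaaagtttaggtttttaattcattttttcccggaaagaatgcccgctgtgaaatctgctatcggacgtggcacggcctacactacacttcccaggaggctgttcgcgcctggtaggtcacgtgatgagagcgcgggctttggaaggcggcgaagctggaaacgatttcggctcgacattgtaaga
Gins3, chr19:9434630-9434929, minus strand: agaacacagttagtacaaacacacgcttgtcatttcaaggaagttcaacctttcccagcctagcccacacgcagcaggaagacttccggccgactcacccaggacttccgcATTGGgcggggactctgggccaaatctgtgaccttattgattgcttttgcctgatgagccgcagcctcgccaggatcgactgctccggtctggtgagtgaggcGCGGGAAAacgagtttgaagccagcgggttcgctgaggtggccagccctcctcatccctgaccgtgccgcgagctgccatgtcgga
The E2F letters searched were TTTCCCGC, TTTCGCGC, TTTGCCGC and TTTGGCGC on both strands, and CCAAT was searched alone on both strands, with no overlap between the 2 kinds. A promoter window was matched for 43 of the 51 genes. E2F letters occurred in 19 of the 43 (44.2%), against 2.14% of 33469 rat promoter windows, and CCAAT in 25 (58.1%), against 37.5%. The 17 tested genes with E2F letters had a median difference of -0.33, and the 23 tested genes without them -0.27. Of the 4 genes printed, Gins3 alone held E2F letters. A match is a description of letters in a window.

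Among 36 further fork and origin genes 29 were tested and 19 were negative (65.5%, against 59.7% of all genes). At an unadjusted p under 0.05 by limma they gave 7 lower (24.1%, background 15.7%) and 0 higher (background 9.37%). Of the 29, 2 fell at an adjusted p of 0.05 (6.9%, background 2.77%) and 0 rose (background 2.24%), with a median of -0.15. Those that fell were Mtbp, a partner of the factor that fires origins, with -0.022 ± 0.13 on fipronil arrays and 0.46 ± 0.089 on control arrays (SD, n = 6 each; difference -0.49, adjusted p = 0.019 by limma), and Pole3, a small subunit of polymerase epsilon (-0.44, adjusted p = 0.0366). Among 27 further E2F and RB pathway genes 21 were tested and 14 were negative (66.7%, against 59.7% of all genes). Of the 21, 2 fell (9.52%, background 2.77%) and 0 rose (background 2.24%), with a median of -0.20. At an unadjusted p under 0.05 there were 4 lower (19.0%, background 15.7%) and 2 higher (9.52%, background 9.37%), both close to the background. The higher ones were E2f3, at 0.86, and Rbl2, at 0.39 with no overlap between groups (adjusted p = 0.192 and 0.0917 by limma). E2f3 stood well above background on only 3 fipronil and 4 control arrays. Cdk2, the kinase that cyclin E activates, fell, with 0.44 ± 0.29 on fipronil arrays and 1.17 ± 0.18 on control arrays (SD, n = 6 each; difference -0.73, adjusted p = 0.0187 by limma). Mybl2, a factor of the cell cycle, also fell (-0.48, adjusted p = 0.033). On slide 1 these differences were -0.37 for Mtbp, -0.25 for Pole3, -0.47 for Cdk2 and -0.37 for Mybl2, and once slide was blocked their adjusted p ran from 0.24 to 0.449. Of the 12 fits that left out 1 array each, Mtbp and Cdk2 were called in 12, Mybl2 in 3 and Pole3 in 2. Of 27 further nucleotide synthesis genes 25 were tested, 22 were negative (88.0%, against 59.7% of all genes) and 0 passed, with a median of -0.13. At an unadjusted p under 0.05 by limma they gave 4 lower (16.0%, background 15.7%) and 0 higher (background 9.37%). Of 8 proliferation markers 4 were negative (50%, against 59.7% of all genes) and 0 passed, with a median of -0.020 (-0.24 on slide 1). Unadjusted, 1 was lower (12.5%, background 15.7%) and 0 higher (background 9.37%). The mitotic kinase Aurkb had the smallest p of these markers (-0.48, adjusted p = 0.127 by limma). On slide 1 the median was -0.26 for the fork and origin genes and -0.30 for the E2F and RB pathway genes. The nucleotide synthesis genes gave -0.051 there, against -0.17 for the 48 genes of the set. Negative on slide 1 were 72.4%, 71.4% and 60% of those lists in turn, and 87.5% of the proliferation markers. The share was 66.7% for the 48 genes and 51.6% for all genes.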

How the data were processed

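Total RNA of 12 samples was hybridised to one-colour arrays, and the submitters' processing notes name Agilent Feature Extraction 10.7. The processed signal is, per the file headers, an intensity with background subtracted and spatial trend removed by the authors, and the flags (well above background, outlier, saturated) are other values of 0 or 1. The deposited table holds log2 values that the titles call quantile-normalized, with a median of 2.63 on every array, and each column correlated at 0.9976 or more with its own array. None of its columns was unused. Of 62976 spots, 58717 were not controls, 0 of these were saturated, and 323 to 711 outlier spots on each array were dropped, except where a probe had no other spot.

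The log2 processed signal minus each array's 75th percentile was averaged per probe and is called the normalised log2 signal. A probe was kept if well above background on at least 6 of 12 arrays, whatever the treatment (16291 of 45598 probes), and the probe with the highest mean stood for a gene (13542 genes). Levels of different probes were not compared. Names came from RefSeq (GRCr8) (21102 probes through an accession, 6691 through a symbol, 424 through a synonym), while 17381 kept the file's name. Groups, taken from the titles, were compared with limma 3.58.1 in R 4.3.3 (data.table package version 1.17.8; lmFit and eBayes, two-sided, Benjamini-Hochberg over all genes, threshold 0.05), which was tested on simulated data. The simulated arrays held no slide effect, so that test does not bear on slide and treatment lying together. The number of arrays limits the precision.

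The members and lists were chosen with earlier results of these data known. The members named in full were those past the threshold, the smallest p of each role, those with several tested probes, and those with differences of opposite sign and at least 0.3 in size on slide 1 and between slides 3 and 2. Promoter motifs and the probe by probe fits were chosen after seeing the data. Replicate numbers 2, 3, 7 and 8 occur in both groups, on different slides, and were not used as pairs. Alternatives covered scaling, background correction, the deposited table, the filter, the probe, the slide, the replicate number and each array left out.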

Additional observations from a re-analysis of the deposited data

Results flagged for a closer look

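Fipronil array 8, on slide 1, stood apart from the other 5 fipronil arrays for 4 of the 25 genes named in full, by the gap between the end value and its nearest neighbour set against the range of the 6. Its normalised log2 signal was 3.42 for Mcm2, where the others read 2.97 to 3.14, and -2.09 for Cdt1, where they read -3.63 to -3.11. It was 2.14 for Mcm4, where the others read 2.57 to 2.78, and -3.33 for Orc2, where they read -2.40 to -2.18. So the array was high for Mcm2 and Cdt1 and low for Mcm4 and Orc2. In all 52 groups of 6 were examined. The measure flags about 1 in 20 groups picked without regard to their values, but the genes were named partly from theirs. They also share the same arrays, so that rate is no yardstick for the 4 flags. Without this array 10 of the 48 genes passed (20.8%) instead of 2, all lower, where 9.3% of all genes were called lower. Calls over all genes went up to 2022, against 678 with all arrays. The 10 genes of the set were Chaf1b, Fen1, Gins2, Gins3, Lig1, Pcna, Prim2, Rfc5, Rpa2 and Uhrf1. Of these, Uhrf1 was well above background on 1 fipronil and 5 control arrays, so its difference depends on signals near background.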

How the results depend on the processing

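The median difference of the set was below zero, and below that of all genes, in the main setting and all 25 alternatives. It covered 48 genes, except for 43 with probes well above background on all 12 arrays and 50 with no filter. These settings are not independent, since they reuse the same arrays, and slide as a fixed block and slide 1 alone gave the same median. The calls depended on the settings. Against 2 genes of the set called in the main fit, quantile normalization called 1, Gins2, lower, where 2.57% of all genes were called lower. The authors' deposited table also called 1, Gins2, lower, where 2.6% of all genes were. Normexp and quantile called 6 (12.5%), all lower, where 3.89% of all genes were. Normexp and the 75th percentile called 24 of the 48, 18 lower and 6 higher, where 12.3% of all genes were called lower and 37.8% higher. With probes well above background on all 12 arrays 6 of 43 (14.0%) were called, all lower, where 4.94% of all genes were. With no filter 9 of 50 were called, 8 lower and 1 higher, where 3.39% and 41.7% of all genes were. With slide as a fixed block, with slide as a random block and on slide 1 alone, 0 were called. At an unadjusted p under 0.05 in limma, slide as a fixed block gave 8 lower (16.7%, background 10.5%) and 1 higher (2.08%, background 8.58%). Slide 1 alone gave 7 lower and 1 higher of the 48, where 2140 of 13542 genes passed in either direction. That is close to the background. With the replicate block 4 were called when random (Fen1, Gins2, Gins3 and Pcna) and 0 when fixed over 8 arrays. Unadjusted, the fixed fit gave 4 lower and 0 higher of the 48, a smaller share than the 2164 of 13542 genes in either direction. The 4 same-numbered array pairs had deviations that correlated at 0.43, 0.075, -0.11 and -0.31, 2 of the 8 correlated best with their own number, and the block moved the calls over all genes to 924 and 0 (2164 unadjusted in the last). Leaving out 1 array gave 1 to 10 called genes of the set, 228 to 2022 called over all genes (678 in the main fit) and a median of -0.32 to -0.23; single genes whose sign turned ran from -0.0032 to 0.61 for Ccne2, -0.0025 to 0.087 for Tk1, -0.13 to 0.11 for Orc2 and -0.28 to 0.070 for Rpa3. Over all genes, normexp and the 75th percentile called 6776, no filter 16312 (of 36180 tested), slide as a fixed block 12, as a random block 21 and slide 1 alone 0 (2140 unadjusted). Median scaling called 150 higher and 435 lower and quantile normalization 362 higher and 348 lower, against 303 and 375. The median of all genes was -0.18 with median scaling, 0.17 with normexp and the 75th percentile and 0.55 with no filter. The median of the set moved to -0.16 with normexp and quantile and to -0.17 with slide as a fixed block or slide 1 alone. Of 637 values of the genes named in full under alternatives, 538 kept their direction and side of the threshold, 27 passed only there, 23 passed only in the main fit and 49 reversed. With median scaling the reversed value was Tk1 -0.056. With normexp and quantile the reversed value was Orc2 0.0077. With normexp and the 75th percentile reversed values were Orc2 0.43, Orc6 0.18, Cdt1 0.41, Rrm1 -0.086, Tk1 -0.16 and Uhrf1 0.65. With the mean of all probes reversed values were Orc2 0.048, Tk1 -0.044 and Chaf1b 0.064. With slide as a fixed block and on slide 1 alone reversed values were Mcm2 0.21, Mcm5 -0.060, Cdt1 0.46, Rfc2 0.39, Rpa1 0.24, Lig1 0.12, Rrm1 -0.17, Tk1 -0.031, Uhrf1 0.42, Chaf1b 0.20, Ccne2 -1.74 and E2f1 0.36. With slide as a random block reversed values were Rfc2 0.054 and Ccne2 -0.41. With the fixed replicate block reversed values were Rfc2 0.054 and Ccne2 -0.37. With another probe they were Orc2 0.16, Rrm1 -0.078, Gins2 0.45, Tk1 -0.13 and Chaf1b 0.55. The cause of these changes was not tested. Signals of Orc1, Uhrf1, Pola2, Pole and Cdt1 near background limit their values, most of all on the dimmer fipronil arrays.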

Other observations

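A probe that the array files list under a transcript ID, and describe as Chaf1a, the large CAF-1 subunit, was well above background on 12 arrays. It gave -0.69 ± 0.35 on fipronil arrays and -1.09 ± 0.077 on control arrays (SD, n = 6 each), a difference of 0.40 (adjusted p = 0.126 over all probes by limma) and 0.13 on slide 1. It was not counted with the set. Markers of other cell types were mostly at background: of 5 astrocyte markers 0 were tested, of 5 oligodendrocyte markers 1, of 5 microglia markers 1 and of 5 endothelial markers 2, and of 8 neuronal markers 2. Of the neuronal markers, Map2, Rbfox3, Syp, Snap25 and Nefl stood well above background on 0 arrays and Nefm on 1. Tubb3, a neuronal tubulin, did so on 9 arrays and differed by -0.36 (adjusted p = 0.678 by limma), and Ncam1, an adhesion molecule, did so on 12 and was higher with fipronil, by 0.73 (adjusted p = 0.0171). Their part in the differences of the replication genes was not tested.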
